A study of Mus musculus with 43 samples.

Results

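A set of 6 genes of the regulated secretory pathway was followed across 4 hypothalamic nuclei and 2 nutritional states: the transcription factor Nhlh2, the processing enzyme Cpe, the convertase inhibitor Pcsk1n and the granins Vgf, Scg2 and Scg3. They were taken by name, and each of the 6 had a row among the 10127 genes of the table analysed. RNA-seq had been performed on 4 regions cut from brain sections by laser capture: the paraventricular nucleus, PVN, the arcuate nucleus, ARC, the dorsomedial and the ventromedial hypothalamus, DMH and VMH. The mice were male, 17 to 19 weeks of age and labelled C57/BL6. Every mouse, fed or fasted, carried the Snord116 deletion on its paternal allele, B6(Cg)-Snord116tm1.1Uta/J, which removes a paternally expressed snoRNA cluster of the Prader-Willi region. Wild-type libraries were not analysed here, the deletion was therefore not checked, and each comparison lies within the deletion genotype. Mice were ad libitum fed or had been fasted for 24 hours. The 41 libraries came from 12 mice, with 4 fasted and 5 fed libraries from the ARC, 5 and 6 from the DMH, 5 and 5 from the PVN, and 6 and 5 from the VMH. A library is named by its nucleus and its mouse number, as in PVN-86.

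Neuropeptides are made as inactive prohormones, which are sorted into dense-core granules at the trans-Golgi network and cut there by prohormone convertases. Carboxypeptidase E, the product of Cpe, then removes the basic residues left at each cut, and proSAAS, the product of Pcsk1n, inhibits prohormone convertase 1. Granins are acidic proteins that help to form the granules. Scg3 (secretogranin III) binds other granins to the granule membrane, while Scg2 (secretogranin II) and Vgf are themselves cut into secreted peptides. Nhlh2 is a basic helix-loop-helix factor of hypothalamic neurons that is known to activate Pcsk1, the gene of prohormone convertase 1. Pcsk1 itself was not analysed here.

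The sequence before the annotated start was read for the 4 of 6 genes that the RefSeq promoter table for GRCm38.p6 held, because 3 of them, Nhlh2, Scg2 and Scg3, had their highest level in the PVN and their lowest in the VMH while Pcsk1n did not. In the 250 bases before each RefSeq start, both strands were searched for TGACGTCA (the cyclic AMP response element), for its core TGACG, which every TGACGTCA also holds, and for CANNTG (the E-box, which basic helix-loop-helix factors bind). Capitals mark the matches. Where a GENCODE model begins before the RefSeq start, as in Nhlh2 and Scg2, the printed stretch ends at that model, and the second stretch of Scg2, which lies inside it, is limited to 30 bases around its match.
Nhlh2, chr3:102009895-102010075, plus strand: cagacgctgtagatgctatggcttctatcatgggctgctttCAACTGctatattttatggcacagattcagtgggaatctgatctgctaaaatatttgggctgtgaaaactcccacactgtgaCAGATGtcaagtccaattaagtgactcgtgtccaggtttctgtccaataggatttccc
Pcsk1n, chrX:7919572-7919821, plus strand: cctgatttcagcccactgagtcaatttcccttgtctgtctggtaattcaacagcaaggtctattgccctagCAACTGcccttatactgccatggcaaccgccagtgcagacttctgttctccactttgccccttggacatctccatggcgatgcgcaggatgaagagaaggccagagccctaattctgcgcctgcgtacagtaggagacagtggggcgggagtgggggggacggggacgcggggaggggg
Scg2, chr1:79440121-79440276, minus strand: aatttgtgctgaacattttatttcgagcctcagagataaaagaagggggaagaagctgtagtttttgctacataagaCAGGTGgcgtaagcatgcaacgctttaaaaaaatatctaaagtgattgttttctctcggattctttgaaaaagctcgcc
Scg2, chr1:79440076-79440105, minus strand: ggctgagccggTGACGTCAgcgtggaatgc
Scg3, chr9:75684057-75684306, minus strand: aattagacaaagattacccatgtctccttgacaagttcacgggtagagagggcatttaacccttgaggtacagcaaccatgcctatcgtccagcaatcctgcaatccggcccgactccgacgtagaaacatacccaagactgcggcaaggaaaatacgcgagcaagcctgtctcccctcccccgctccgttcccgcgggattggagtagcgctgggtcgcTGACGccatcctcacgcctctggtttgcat

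TGACGTCA was found in Scg2 alone of the 4, beginning 68 bases before the start, and in 1.55% of the 32851 promoter windows of the same length. Scg3 held the core TGACG 30 bases before its start, a match that 17.8% of all windows had. CANNTG was found 2 times in Nhlh2, the farther match at 209 bases before the start, and 1 time each in Pcsk1n, at 179, and in Scg2, at 173, but not in the window of Scg3, and 66.2% of all windows had at least 1. These matches describe letters in a window and not binding.

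Levels are in CPM, read counts relative to the total of the library. Depth was 1.94 to 8.23 M reads per library. Each nucleus was highest for its own measured markers. Npy, the orexigenic peptide gene of the ARC, averaged 473 CPM there and at most 5.55 CPM elsewhere, Avp averaged 800 CPM in the PVN, and Npvf averaged 95.2 CPM in the DMH. Fezf1 and Sox14 together ranged from 192 to 270 CPM in the VMH and reached at most 21.9 CPM elsewhere. In tissue of this kind, fewer cells of a type and less RNA per cell cannot be told apart.

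Per kilobase of exon, which allows levels to be compared between genes, the 6 genes covered a wide range. Cpe (ENSMUSG00000037852, chr8:64592542-64693054) averaged 574 CPM per kilobase over all libraries and ranked 10 of the 9891 genes with a known length. A block of 6725 annotated genes, by order of identifier, is not in the table used here, so ranks and shares of genes refer to those measured. Scg2 (ENSMUSG00000050711, chr1:79434669-79440120) followed at 564 CPM per kilobase and rank 12. Both were therefore among the most abundant transcripts measured. Pcsk1n (ENSMUSG00000039278, chrX:7919822-7924410) stood at 124 CPM per kilobase and rank 116, and Scg3 (ENSMUSG00000032181, chr9:75643189-75684056) at 111.1 and rank 137. Vgf (ENSMUSG00000037428, chr5:137026392-137033351) averaged 25.3 CPM per kilobase, rank 964. Nhlh2 (ENSMUSG00000048540, chr3:102010076-102015492) was the scarcest at 1.87 CPM per kilobase and rank 7206. It rested on 1 to 160 reads per library, against 59 to 2024 for Vgf and at least 448 for the other 4 genes. Exons of Pcsk1n overlap those of Eras on the other strand, and strand use in counting is not given in the sources used here, so reads of this pair cannot be told apart.

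The first question was how each gene was distributed over the nuclei. All 6 differed between nuclei in the limma F-test, where 43.2% of 10121 genes passed at an adjusted p under 0.1. Of these, 5, all but Pcsk1n, were higher in the PVN than in the mean of the other nuclei, a call that 10.4% of genes had in that direction. The same 5 genes were lower in the VMH, a call that 16.6% of genes had. The median log2 difference of the 6 genes was 0.57 in the PVN and -0.66 in the VMH, beside -0.01 and -0.02 over all genes.

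**Figure D1:**
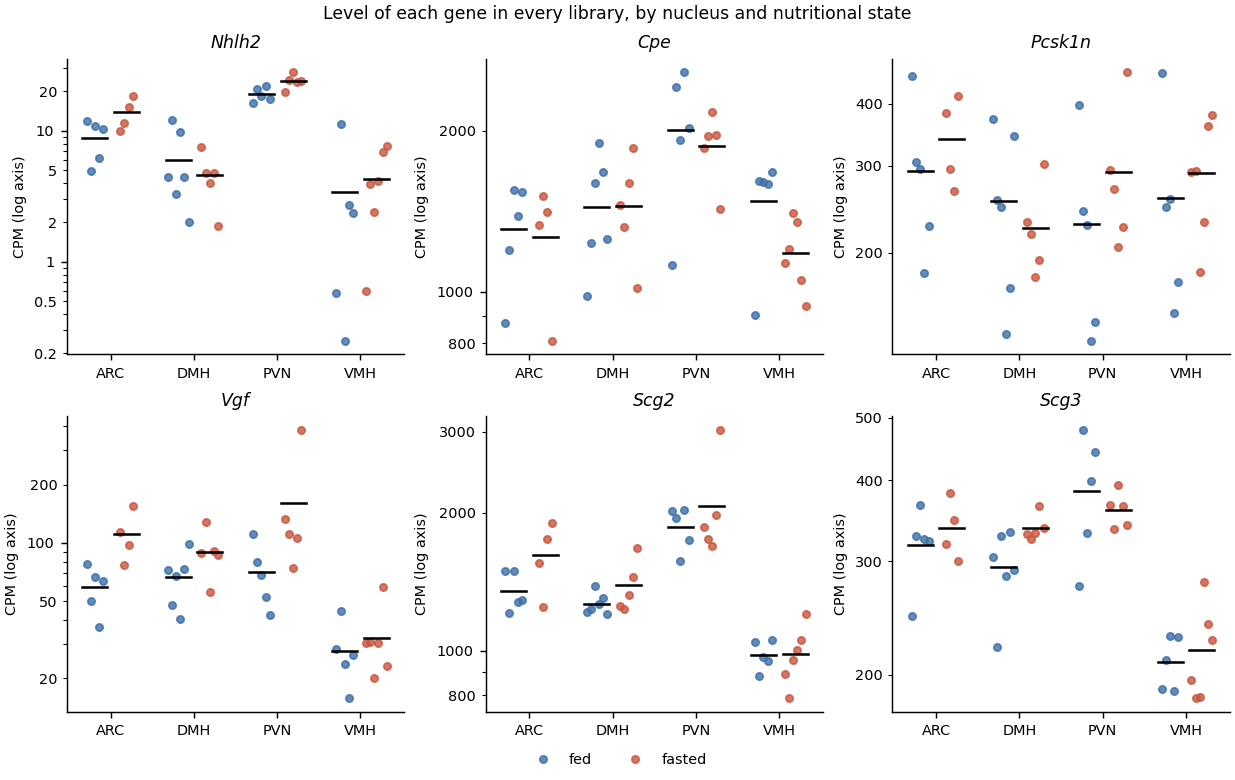
CPM of each of the 6 genes (log axis) in every library, grouped by nucleus on the x axis. Blue points are fed and red points fasted mice, and a black bar is the group mean. Nhlh2, Vgf, Scg2 and Scg3 have their highest mean in the PVN and their lowest in the VMH, and the library PVN-86 lies above the other PVN libraries for Vgf (383 CPM) and Scg2 (3028 CPM).

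Nhlh2 showed the widest spread between nuclei. It ranged from 16.3 to 27.9 CPM in the PVN (median 21.4, n = 10), from 4.91 to 18.5 CPM in the ARC (median 10.9, n = 9), from 1.89 to 12.1 CPM in the DMH (median 4.43, n = 11) and from 0.250 to 11.2 CPM in the VMH (median 2.71, n = 11). The PVN libraries thus lay above every DMH and VMH library and overlapped the ARC. The PVN level was 3.84-fold the mean of the other nuclei (log2 difference 1.94 ± 0.30 SE, adjusted p = 1.18e-06, limma), and it was the higher one in 10 of 10 mice. Folds here and below are taken from the fitted log2 differences and are not ratios of mean CPM. The VMH level was lower by a log2 difference of -1.78 ± 0.29 (adjusted p = 2.11e-06, limma). Among neighbours in the order PVN, ARC, DMH, VMH, the PVN exceeded the ARC (adjusted p = 0.0861) and the ARC exceeded the DMH (adjusted p = 0.0345). The first of these calls was lost with a pseudocount of 0.1, with depth as a covariate and in 6 of 12 fits that left out a mouse (adjusted p of up to 0.192), and the second was lost without mouse 86 (adjusted p = 0.146). The DMH was lower than the other nuclei by -0.82 ± 0.29 (adjusted p = 0.0564), a call lost in 5 of 12 such fits. This call was also lost with a pseudocount of 0.1, with array weights and with the replicate block as fixed mouse terms. The DMH and VMH did not differ past the threshold (log2 difference 0.72, 95% interval 0.02 to 1.42, adjusted p = 0.157). The DMH was the higher in 9 of 10 mice, and it passed with the replicate block as fixed mouse terms and with array weights (adjusted p down to 0.0144).

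Cpe varied little between nuclei but stood out in the PVN. It ranged from 1122 to 2572 CPM in the PVN (median 1958), from 983 to 1898 in the DMH (median 1452), from 904 to 1677 in the VMH (median 1353) and from 809 to 1553 in the ARC (median 1388). These ranges overlapped in CPM, yet within each mouse the PVN was above the mean of that mouse's other nuclei, in 10 of 10 mice. The PVN level was 1.41-fold that of the other nuclei (log2 difference 0.49 ± 0.05, adjusted p = 5.38e-10, limma). The ARC was below the mean of the mouse's other nuclei in 9 of 9 mice (log2 difference -0.29 ± 0.06, adjusted p = 9.24e-05). Against the VMH alone, however, it was the higher in 3 of 9. The VMH and DMH differed by 0.12 on the log2 scale (95% interval -0.01 to 0.25) and the VMH and ARC by -0.08 (ARC minus VMH, 95% interval -0.22 to 0.05), and neither pair passed the threshold.

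Pcsk1n, whose product restrains the convertase, did not follow that order. Its mean was 314 ± 88.2 CPM in the ARC (SD, n = 9), 276 ± 95.1 in the VMH (n = 11), 260 ± 103 in the PVN (n = 10) and 241 ± 74.1 in the DMH (n = 11). Each SD exceeded the gap between neighbouring means, and the values differed between batches (described with the batches). With batch in the fit, the ARC was 1.30-fold the others (log2 difference 0.37 ± 0.07, adjusted p = 4.01e-05, limma). The ARC was above the mean of the mouse's other nuclei in 9 of 9 mice. The DMH was lower (log2 difference -0.26 ± 0.06, adjusted p = 0.00424), and it was below that mean in 10 of 10 mice. Taken pair by pair, it was above the PVN in 4 of 10 mice and above the VMH in 1 of 10. The PVN gave -0.08 (95% interval -0.22 to 0.05) and the VMH -0.03 (95% interval -0.16 to 0.10), neither past the threshold. Without the batch term, the F-test between nuclei no longer passed for this gene (adjusted p = 0.174), nor did the ARC or the DMH against the others.

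Among the granins, Vgf had the sharpest contrast, which was between the VMH and the rest. It ranged from 15.8 to 59.6 CPM in the VMH (median 28.5), from 40.6 to 128 CPM in the DMH (median 73.6), from 36.9 to 155 CPM in the ARC (median 76.7) and from 42.3 to 383 CPM in the PVN (median 92.8). The VMH level was 0.341 of the mean of the others (log2 difference -1.55 ± 0.14, adjusted p = 4.02e-13, limma), and it was the lower one in all 10 mice with a VMH library and at least 1 other. The PVN was higher by 0.81 ± 0.14 on the log2 scale (adjusted p = 1.90e-05), and by 0.64 (adjusted p = 2.21e-04) once mouse 86 was left out. The PVN and ARC did not differ past the threshold (ARC minus PVN, log2 difference -0.27, 95% interval -0.63 to 0.10), nor did the ARC and DMH (0.12, 95% interval -0.23 to 0.48).

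Scg2 covered 1571 to 3028 CPM in the PVN (median 1901), 1209 to 1903 in the ARC (median 1490), 1203 to 1678 in the DMH (median 1265) and 788 to 1204 in the VMH (median 968). All VMH libraries but VMH-86 lay below every library of the other nuclei. The PVN was 2.00-fold the VMH (log2 difference 1.00 ± 0.07, adjusted p = 1.98e-17, limma), and it was the higher in 10 of 10 mice. The ARC and DMH lay between them and did not differ past the threshold (log2 difference 0.16, 95% interval 0.02 to 0.29, adjusted p = 0.130), although the ARC passed as higher with TMM scaling, with depth as a covariate and with array weights (adjusted p down to 0.0675).

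Scg3 was also highest in the PVN and lowest in the VMH, over a narrower range, and the ARC was above the DMH in 4 of 9 mice. It covered 275 to 479 CPM in the PVN (median 366), 246 to 383 in the ARC (median 325), 221 to 365 in the DMH (median 328) and 184 to 278 in the VMH (median 211). The VMH was lower than the other nuclei in 10 of 10 mice (log2 difference -0.65 ± 0.07, adjusted p = 3.65e-11, limma). The PVN was higher (0.40 ± 0.07, adjusted p = 1.52e-05), but neither the PVN and ARC (adjusted p = 0.192) nor the ARC and DMH (adjusted p = 0.813) differed past the threshold.

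**Figure D2:**
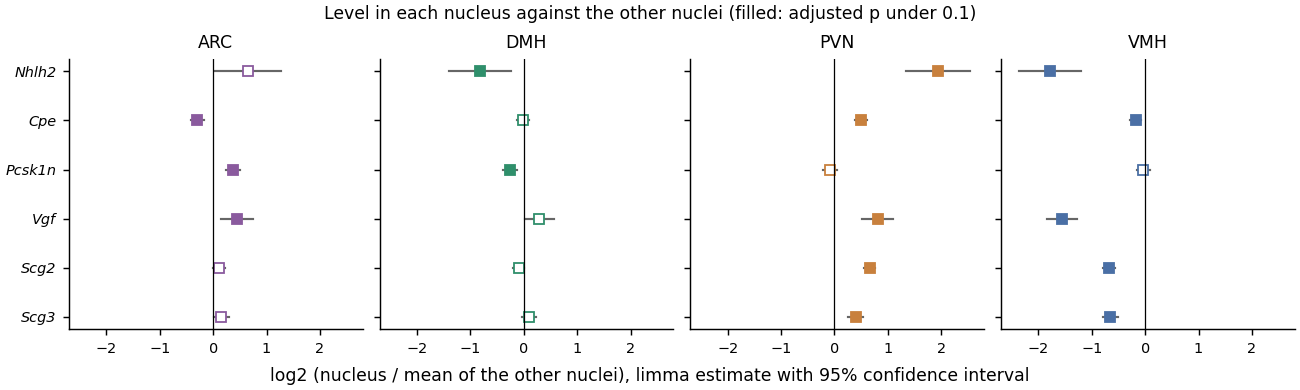
log2 difference of each nucleus from the mean of the other 3 nuclei (x axis) for the 6 genes, with 95% confidence intervals from limma. Filled squares passed an adjusted p under 0.1, which was the case for 3 genes in the ARC, 2 in the DMH, 5 in the PVN and 5 in the VMH.

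Between pairs of nuclei, 5 of 6 genes differed for the PVN and VMH, where 31.2% of all genes did, and 5 for the ARC and VMH, where 30.2% did. The count was 4 for the ARC and PVN (16.6%), 4 for the DMH and PVN (18%), 3 for the ARC and DMH (17.9%) and 3 for the DMH and VMH (23.3%). Of these calls, that of Scg3 between the DMH and PVN (adjusted p = 0.0633) was lost in 5 of 12 fits that left out a mouse (adjusted p of up to 0.293), and that of Cpe between the ARC and DMH was lost when the mouse of ARC-311 was left out (adjusted p = 0.112). Against the mean of the other nuclei, 3 of 6 genes passed in the ARC (Cpe lower, Pcsk1n and Vgf higher), where 21.5% of all genes did. In the DMH, 2 of 6 passed (Nhlh2 and Pcsk1n, both lower), where 14.9% did. The counts of 5 in the PVN and 5 in the VMH compare with 22% and 33% of all genes in either direction. The cell makeup of the captures also differed between nuclei. In the VMH, 8 of 9 oligodendrocyte markers measured were higher than in the other nuclei, and their summed level ranged from 1193 to 1866 CPM there against 295 to 1687 CPM elsewhere. Of 3 neuron markers measured, 2 were higher in the VMH and none lower, with sums of 970 to 1186 CPM against 674 to 1088 CPM. In the PVN, 4 of 4 endothelium and pericyte markers were higher, with sums of 121 to 199 CPM against 39.8 to 124 CPM, and 5 of 9 oligodendrocyte markers were lower. Of the other lists in the PVN, 2 of 3 neuron markers were higher and 1 lower, 1 of 5 ependyma and tanycyte markers was higher and 3 lower, and 1 of 5 astrocyte markers was higher. In the ARC, 5 of 5 astrocyte markers were lower, with sums of 392 to 494 CPM against 542 to 758 CPM, as were 5 of 9 oligodendrocyte, 3 of 4 endothelium and 2 of 3 neuron markers, while the other neuron marker and 4 of 5 ependyma and tanycyte markers were higher (the latter with sums of 53.1 to 183 CPM against 9.84 to 243 CPM). In the DMH, 3 of 5 astrocyte markers were higher, 1 neuron marker was higher and 1 lower, and 1 ependyma and tanycyte marker was higher and 2 lower. The VMH further had 1 astrocyte marker higher, 1 endothelium marker lower, and 1 ependyma and tanycyte marker higher and 2 lower. Of these lists, only that of ependyma and tanycytes held markers at 0 in some libraries (Foxj1, Lhx2, Crym and Gpr50). The part of cell makeup in the differences between nuclei was not tested.

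The second question was whether fasting changed these genes. Vgf was higher in fasted mice in the ARC and PVN, and it was the only one of the 6 genes to pass the test within a nucleus. Here 1 member of 6 passed in the ARC, where 0.176% of all genes did, and 1 of 6 in the PVN, where 0.367% did. In none of the 24 sets of 1 gene and 1 nucleus did all fasted libraries lie on one side of all fed ones, which was the case for 2.13% of all genes in the ARC, 0.4% in the DMH, 1.31% in the PVN and 0.5% in the VMH. In the DMH and VMH no member passed in limma, where 0.0103% and 0.0208% of genes did. At an unadjusted p under 0.05 there were 3 members in the ARC (Vgf, Pcsk1n and Scg2; 8.1% of all genes), 1 in the DMH (Vgf; 6.62%), 2 in the PVN (Vgf and Pcsk1n; 9.97%) and 1 in the VMH (Cpe; 6.98%).

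In the ARC, Vgf was 155 CPM in ARC-86, 114 in ARC-100, 97.8 in ARC-311 and 76.7 in ARC-305, all fasted. In fed mice it was 78.1 CPM in ARC-111, 66.6 in ARC-127, 63.6 in ARC-313, 50.0 in ARC-125 and 36.9 in ARC-308. Of the fasted libraries, 3 of 4 lay above every fed library, and ARC-305 lay just below the highest of them. The fasted level was 1.88-fold the fed level (log2 difference 0.91 ± 0.19 SE, 95% interval 0.52 to 1.31, adjusted p = 0.0867, limma with batch as a term). Within batches the difference was 0.99, 0.97 and 0.83 on the log2 scale in batches 1, 2 and 3. The adjusted p lies close to the threshold, and the call was lost when any of 7 of the 9 libraries was left out, with an adjusted p of up to 0.392 without ARC-308, although the log2 difference stayed between 0.79 and 1.07.

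In the PVN, Vgf was 383 CPM in PVN-86, 132 in PVN-100, 111.3 in PVN-101, 105 in PVN-311 and 74.1 in PVN-305, all fasted. In fed mice it was 111.4 CPM in PVN-111, 80.1 in PVN-125, 68.6 in PVN-127, 52.3 in PVN-308 and 42.3 in PVN-313. Of the fasted libraries, 2 of 5 lay above every fed library, and fed PVN-111 and PVN-125 lay above fasted PVN-305. The fasted level was 2.00-fold the fed level (log2 difference 1.00 ± 0.17, 95% interval 0.64 to 1.36, adjusted p = 0.0248, limma). Within batches 1, 2 and 3 the difference was 1.78, 0.71 and 0.90. Without PVN-86 the difference was 0.81 (adjusted p = 0.0656), so the call did not rest on that library, and it was lost only without PVN-100 (1.01, adjusted p = 0.151). Without the batch term the log2 differences were 0.90 ± 0.24 in the ARC and 1.00 ± 0.34 in the PVN, and neither passed (adjusted p = 0.520 and 0.728).

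In the DMH, fasted Vgf values were 128, 90.9, 88.5, 86.4 and 56.0 CPM, and the 6 fed values had a lowest of 40.6, a median of 70.0 and a highest of 98.9 CPM. The groups overlapped, and the log2 difference of 0.49 ± 0.21 (95% interval 0.05 to 0.93) did not pass (adjusted p = 0.727, limma). In the VMH, where Vgf was lowest, the fasted libraries had a lowest of 20.1, a median of 30.4 and a highest of 59.6 CPM, and the fed ones were at 44.5, 28.5, 26.6, 23.7 and 15.8 CPM. The log2 difference there was 0.16 ± 0.28 (95% interval -0.41 to 0.73). It moved between 0.0115 and 0.323 when single libraries were left out.

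**Figure D3:**
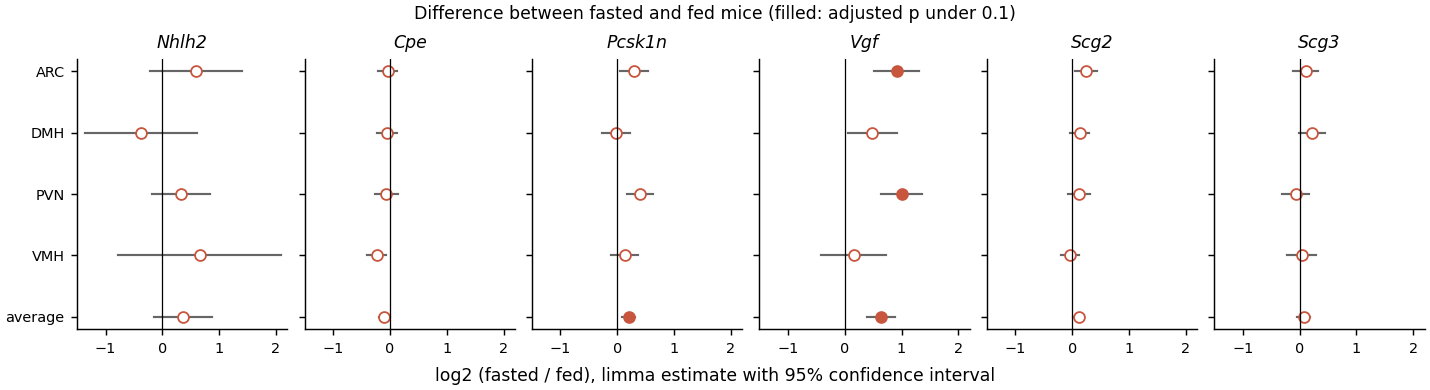
log2 ratio of fasted to fed mice (x axis) for each of the 6 genes in each nucleus and as the average over nuclei, with 95% confidence intervals from limma. Filled circles passed an adjusted p under 0.1: Vgf in the ARC, in the PVN and on average, and Pcsk1n on average.

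An F-test in a fit over all libraries asked if fasting acted unequally across the 4 nuclei. For Vgf the unadjusted p was 0.0505 and the adjusted p 0.933, so the passes in the ARC and PVN and the misses in the DMH and VMH were not shown to differ. No gene of the 10121 passed that F-test in limma (0%), and 517 had an unadjusted p under 0.05, none of the 6 members among them.

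Averaged over the 4 nuclei with equal weight, 2 of the 6 genes passed, Vgf and Pcsk1n, where 3.18% of all genes did. Vgf was 1.56-fold higher in fasted mice (log2 difference 0.64 ± 0.12, adjusted p = 0.00118, limma), and Pcsk1n 1.15-fold higher (0.20 ± 0.06, adjusted p = 0.0479). This fit counts the libraries of 1 mouse as almost independent, since the correlation it estimated over all genes was -0.003245. For Pcsk1n, however, libraries of the same mouse correlated at 0.587 after nucleus, state and batch were accounted for, higher than in 99.2% of genes. That value was 0.435 for Scg2 and 0.0409 for Vgf. The log2 difference of Pcsk1n moved between 0.13 and 0.28 when mice were left out. Its call was lost in 6 of these 12 fits (adjusted p of up to 0.342, limma) and with depth as a covariate. With 1 mean per mouse in place of its libraries, neither gene passed, with a log2 difference of 0.62 ± 0.14 for Vgf (adjusted p = 0.300) and 0.15 ± 0.11 for Pcsk1n (adjusted p = 0.732). The mean of mouse 85 rests on VMH-85 alone and that of mouse 92 on DMH-92 alone, with the same weight as the other means. An exact permutation test of those means, chosen after the results were seen, relabelled the 12 mice as fasted or fed within batches. It gave a 2-sided p of 0.00926 for Vgf, the smallest that its 216 relabellings can give, and 0.167 for Pcsk1n. Among the other 4 genes it gave p values from 0.130 for Nhlh2 to 0.213 for Scg3, unadjusted over the 6 tests.

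**Figure D4:**
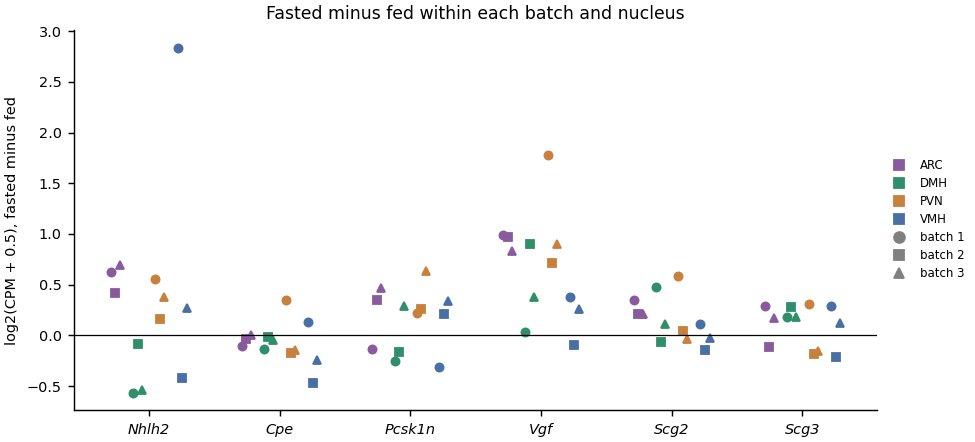
Difference between fasted and fed libraries on the log2(CPM + 0.5) scale (y axis) for each gene, within each of the 3 batches and 4 nuclei. Colour gives the nucleus and marker shape the batch, and each point is a difference of the means of 1 or 2 libraries per state. Vgf lies above 0 in 11 of 12 combinations, Cpe in 2 of 12, and the other 4 genes in 8 of 12 each.

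Vgf was higher in fasted than in fed libraries in 11 of 12 combinations of batch and nucleus, the exception being the VMH of batch 2 (-0.09). The differences of Nhlh2 ranged more widely, from -0.57 in the DMH to 2.84 in the VMH, both of batch 1. The value of 2.84 set VMH-85 and VMH-86, with 28 and 25 reads, against 1 fed library, VMH-111, with 2 reads. Nhlh2 was at 18.5, 15.3, 11.6 and 10.02 CPM in fasted and at 11.8, 10.9, 10.3, 6.22 and 4.91 CPM in fed ARC libraries, which overlap (log2 difference 0.59 ± 0.39, adjusted p = 0.695, limma). In the PVN it was at 27.9, 24.6, 24.2, 23.4 and 19.6 CPM in fasted and at 22.0, 20.8, 18.3, 17.4 and 16.3 CPM in fed mice. In the PVN, 4 of the 5 fasted libraries lay above every fed library, but the log2 difference of 0.33 ± 0.24 did not pass (adjusted p = 0.707). Its 95% interval ran from -0.18 to 0.83 in the PVN, and in the DMH (-1.36 to 0.61) and VMH (-0.79 to 2.09) the intervals were wider still. What made them wide was not tested.

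Pcsk1n had its largest difference in the PVN (0.40 ± 0.11, unadjusted p = 0.00164, adjusted p = 0.197, limma). Fasted PVN libraries were at 462, 294, 269, 225 and 206 CPM and fed ones at 397, 243, 228, 145 and 133 CPM. These groups overlapped in CPM, with 1 fasted library above every fed one, and the difference was 0.22, 0.26 and 0.63 within batches 1, 2 and 3. In the DMH the difference was -0.02 (95% interval -0.26 to 0.23). Over all batches and nuclei, Pcsk1n was higher in fasted libraries in 8 of 12 combinations. It was lower in batch 1 in the ARC (-0.13), DMH (-0.25) and VMH (-0.32), and in batch 2 in the DMH (-0.17). Cpe differed most in the VMH, where it was lower in fasted mice (log2 difference -0.23 ± 0.08, unadjusted p = 0.00708, adjusted p = 0.547, limma). Fasted VMH libraries ranged from 940 to 1403 CPM (median 1167), and 4 of 5 fed libraries lay between 1594 and 1677 CPM with VMH-111 at 904. The difference was 0.14 in batch 1, the batch of VMH-111, and -0.46 and -0.25 in batches 2 and 3. In the other nuclei the 95% intervals of Cpe reached no further than -0.26 and 0.14.

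Scg2 gave log2 differences of 0.24 in the ARC (unadjusted p = 0.0157, adjusted p = 0.522, limma), 0.13 in the DMH, 0.12 in the PVN and -0.04 in the VMH. Without the library of mouse 86 the PVN value was 0.00434 and the DMH value 0.0197. The ARC value moved between 0.158 and 0.337 when single libraries were left out. In the PVN, PVN-86 at 3028 CPM stood apart from the other 4 fasted libraries, which were at 1975, 1857, 1756 and 1694 CPM, beside fed libraries of 1571 to 2025 CPM. Scg3 gave 0.22 in the DMH (95% interval -0.01 to 0.45) and between -0.07 and 0.11 in the other nuclei, with no adjusted p under 0.761. Its DMH value moved between 0.13 and 0.29 when single libraries were left out.

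Markers of other cell types were set beside these comparisons. In the ARC, the 4 endothelium and pericyte markers measured (of 9 listed) summed to 39.8 to 44.8 CPM in fasted and 58.2 to 65.1 CPM in fed mice, with no overlap, although none of the 4 passed alone in limma (adjusted p of at least 0.559, with 1 at an unadjusted p under 0.05). In the PVN, the 3 neuron markers measured (of 12 listed) summed to 827 to 934 CPM in fasted and 760 to 840 CPM in fed mice, and none of the 3 passed (adjusted p of at least 0.318, with 1 at an unadjusted p under 0.05). Avp and Crh summed to 1600 CPM in PVN-86, the highest of the PVN. No marker of the neuron or endothelium lists was at 0 in any library. On average over nuclei, where Vgf and Pcsk1n passed, 1 of 5 astrocyte markers was higher in fasted mice (Agt, adjusted p = 0.00452, limma) and 1 of 4 endothelium and pericyte markers was lower (Flt1, adjusted p = 0.0730), both named after their values were seen. The part of these cell types in the differences of Vgf and Pcsk1n was not tested.

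The 3 batches, which the labels give for each library, were read in the same way. In the F-test between batches in the fit over all libraries, 4 of the 6 genes passed (Cpe, Pcsk1n, Vgf and Scg2), where 31.7% of all genes did. Pcsk1n fell by 1.06 ± 0.07 on the log2 scale from batch 1 to batch 3 (adjusted p = 3.24e-16, limma), and batch 2 lay between. Cpe moved the other way, with batch 3 above batch 1 by 0.71 ± 0.06 (adjusted p = 3.02e-13). Vgf fell by 0.83 ± 0.16 (adjusted p = 4.30e-05) and Scg2 fell by 0.21 ± 0.06 (adjusted p = 0.00650) from batch 1 to batch 3, while Nhlh2 and Scg3 did not pass the F-test (adjusted p = 0.923 and 0.234). Batch varied between mice, and this fit counts the libraries of 1 mouse as almost independent. Libraries of the same mouse correlated at 0.587 for Pcsk1n and 0.435 for Scg2, so their SE and p values here understate the spread between mice. Each batch held fasted and fed mice of every nucleus, but only 1 fasted and 1 fed library of batch 1 were analysed in the ARC and in the PVN. The labels also give a fasted (mouse 85) and a fed (mouse 92) PVN sample of batch 1. The table columns of these mice left unmatched, beside those of VMH-85 and DMH-92, are named ARC. Neither was used, and PVN-86 and ARC-86 alone stand for fasted mice of batch 1 in these nuclei.

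**Figure D5:**
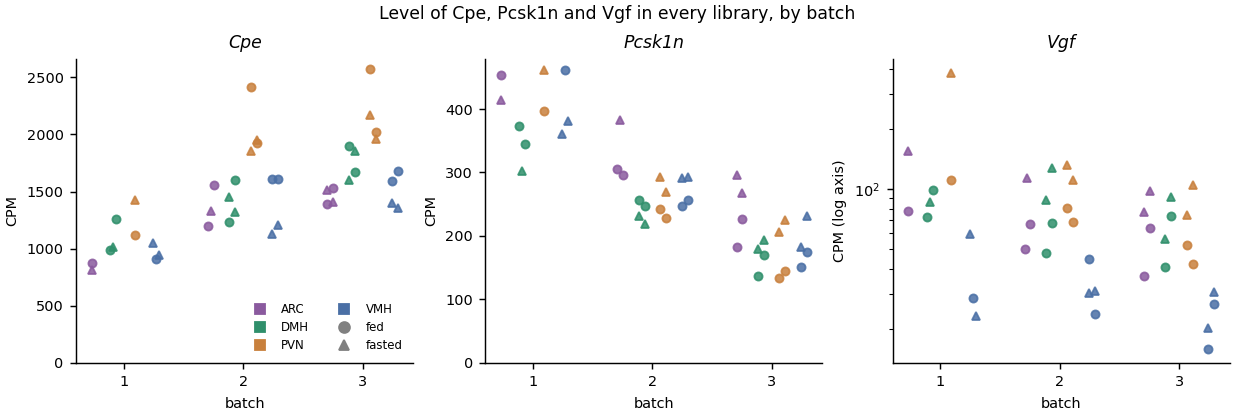
CPM of Cpe, Pcsk1n and Vgf (log axis for Vgf) in every library by batch (x axis). Colour gives the nucleus, circles are fed and triangles fasted mice. Pcsk1n is highest in batch 1 and lowest in batch 3, and Cpe is lowest in batch 1.

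How the genes varied together was described over the same libraries. Over all 41 libraries, on the log2(CPM + 0.5) scale, Pearson's r was -0.72 between Cpe and Pcsk1n and fell in size to -0.21 once the 8 group means and batch were taken out. Vgf and Scg2 had an r of 0.77, Scg2 and Scg3 of 0.73, and Nhlh2 and Scg2 of 0.72, values that became 0.31, 0.21 and 0.10. Cpe and Scg3 alone kept a value above 0.5 (0.53 before and 0.58 after). The libraries share mice, nuclei and batches, so these values are descriptive.

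The genes most like each member over the 41 libraries, among 7638 with a mean of at least 5 CPM, were named by Pearson's r. For Nhlh2 these were Shisal2a (0.83), Tent5a (0.80) and Rbms3 (0.79). For Vgf they were Rasgrf1 (0.84), a Ras exchange factor, the imprinted gene Dlk1 (0.82) and Ece1 (0.81), which encodes endothelin converting enzyme. Scg2 was closest to the predicted gene Gm20721 (0.91), to Agtr1a (0.87), the angiotensin II receptor, and to Parm1 (0.86). Scg3 was closest to Zfp945 (0.82), Ap1s2 (0.82), a subunit of the adaptor that sorts cargo at the trans-Golgi network, and Tent5a (0.82). Cpe was closest to Myo5a (0.82), the motor that carries secretory granules, to Ddx3x (0.82) and to Reep1 (0.81). For Pcsk1n the closest named gene was Rpph1 (0.85), the RNA subunit of ribonuclease P, and the next 2 were rows with no symbol in the annotation used. With group means and batch taken out, r was between 0.10 and 0.62 for all 18 pairs.

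The wider pathway was read from 7 lists, of which 58 of 142 genes were measured. Between nuclei, 24 of these 58 (41.4%) differed in the ARC, 20 (34.5%) in the DMH, 28 (48.3%) in the PVN and 37 (63.8%) in the VMH, beside 21.5%, 14.9%, 22% and 33% of all genes. Pcsk2, Pam, Chga and Chgb were among those not analysed here. With fasting in the ARC, 1 of 54 tested genes passed (1.85%, beside the 0.176% of all genes), Npy, which rose with fasting from a mean of 267 to 730 CPM (log2 difference 1.35 ± 0.16, adjusted p = 0.00114, limma). In the DMH, PVN and VMH none passed in limma, with 4 of 56, 5 of 55 and 3 of 51 at an unadjusted p under 0.05, beside 6.62%, 9.97% and 6.98% of all genes. On average over nuclei, 2 of 58 passed (3.45%, beside the 3.18% of all genes), both lower in fasted mice. They were Rnpep, an aminopeptidase that trims basic residues from peptides (-0.61 ± 0.17, adjusted p = 0.0429), and Atp6v1h, a subunit of the proton pump that acidifies granules (-0.26 ± 0.08, adjusted p = 0.0952).

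Of 6 processing enzymes measured (17 listed), Mbtps1, the site-1 protease, was higher in the ARC (log2 difference 0.50 ± 0.14, adjusted p = 0.00608, limma) and lower in the VMH (-0.51 ± 0.13). Pcsk6, a convertase of the constitutive pathway, was higher in the VMH at a mean of 20.4 CPM (1.31 ± 0.26, adjusted p = 9.31e-05) and lower in the DMH (-1.17 ± 0.26). Rnpep was the one enzyme that passed in the PVN, where it was lower (-0.52 ± 0.20, adjusted p = 0.0630). In all, 1 of the 6 was called higher in the ARC, 1 lower in the DMH, 1 lower in the PVN, and 2 higher and 1 lower in the VMH.

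Of 4 genes listed beside the granins (9 listed), 2 were higher in the PVN: Nucb2, the precursor gene of nesfatin (0.48 ± 0.10, adjusted p = 4.56e-04, limma), and its paralogue Nucb1 (0.41 ± 0.09). Cpq, a secreted peptidase, was lower in the VMH (-1.16 ± 0.25, adjusted p = 1.87e-04) and higher in the ARC at 15.4 CPM (0.96 ± 0.26). Spock1, a secreted proteoglycan, had its highest mean, 79.4 CPM, in the VMH (1.08 ± 0.12, adjusted p = 4.89e-10). In the VMH, 1 of the 4 was higher and 2 were lower, and in the DMH 3 were lower.

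Of 12 genes of dense-core vesicle biogenesis (18 listed), 4 were higher and 2 lower in the PVN, and 2 were higher and 5 lower in the VMH. Hid1, needed for sorting into granules, was the largest in the PVN (0.60 ± 0.10, adjusted p = 2.25e-06, limma), with a mean of 189 CPM there and 115 CPM in the VMH. Ica1 followed in the PVN (0.37 ± 0.13, adjusted p = 0.0481). In the VMH, Arfip1 (-0.64 ± 0.16) and Ccdc186 (-0.41 ± 0.09, adjusted p = 3.90e-04), both Golgi proteins, were lower. The median log2 difference of this list was 0.08 in the PVN and -0.10 in the VMH, against 0.57 and -0.66 for the 6 members.

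The 11 measured genes of granule release (24 listed) held calls in both directions in each nucleus. There were 2 higher and 2 lower in the PVN, and 4 higher and 2 lower in the VMH. The counts were less even in the ARC, with 2 higher and 5 lower, and in the DMH, with 4 higher and 1 lower. Sytl4, which encodes granuphilin, a docking factor of secretory granules, was lower in the PVN at 34.4 CPM (-1.22 ± 0.14, adjusted p = 5.65e-10, limma) and higher in the VMH at 96.0 CPM (0.88 ± 0.13). Syt10, a calcium sensor, was higher in the DMH (1.08 ± 0.16) and lower in the VMH (-1.16 ± 0.16). Rab27a, a granule GTPase, was higher in the ARC (0.79 ± 0.19) and lower in the PVN (-0.65 ± 0.18). Syt9, another calcium sensor, was lower in the ARC (-0.79 ± 0.15), and Sytl5 was lower in the DMH at 5.75 CPM (adjusted p = 9.24e-04).

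Of 7 genes of the proton pump (18 listed), Atp6v1a, its catalytic subunit, was higher in the VMH at a mean of 862 CPM (0.48 ± 0.04, adjusted p = 6.67e-13, limma) and lower in the ARC at 564 CPM. Atp6ap2, the (pro)renin receptor, was higher in the PVN (0.52 ± 0.11, adjusted p = 2.90e-04). Atp6v1g1 was higher in the PVN (0.40 ± 0.12) and lower in the VMH (-0.34 ± 0.11).

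Among 6 measured partners and inhibitors of basic helix-loop-helix factors (13 listed), Lmo2 and Lmo3, LIM-domain adaptors that join such factors in complexes, differed in opposite directions in the DMH, PVN and VMH, while both were lower in the ARC (-0.78 ± 0.26 and -0.67 ± 0.08). Lmo3 was highest in the VMH, where Nhlh2 was lowest, with a mean of 462 CPM (2.02 ± 0.08, adjusted p = 2.48e-27, limma). Lmo2 was highest in the PVN at 27.8 CPM, where Nhlh2 was highest (1.54 ± 0.25, adjusted p = 4.32e-06), and lowest in the VMH at 5.24 CPM.

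Of the peptide precursors, the substrates of this pathway, 12 were measured (43 listed), of which 5 were higher and 5 lower in the PVN, and 2 were higher and 9 lower in the VMH, where their median log2 difference was -1.72. Avp, the vasopressin gene (8.21 ± 0.26, adjusted p = 1.12e-29, limma), and Crh, the corticotropin-releasing hormone gene (5.16 ± 0.29), led in the PVN. In the DMH, Npvf (6.69 ± 0.29) and Hcrt, the orexin gene (6.27 ± 0.36), led. Pmch, the melanin-concentrating hormone gene, was the furthest below the others in the ARC (-3.95 ± 0.27), and Cck, the cholecystokinin gene, was low in the VMH (-3.00 ± 0.36).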

How the data were processed

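RNA of laser-captured nuclei had been amplified before library construction (Ovation RNA-Seq System V2). Per the submitters' processing notes the reads were mapped to GRCm38 with TopHat2 2.0.11, and Cufflinks 2.2.1 is also named. The authors deposited CPM per Ensembl gene. Of 43 columns, 41 matched a sample, and 2 were not used. They are named ARC of mice 85 and 92, while the labels give a PVN and no ARC sample of those mice. So 2 of the 43 samples had no column here. Names, coordinates and exon lengths came from GENCODE M21. Depth was read from the value of 1 read and gave 1.94 to 8.23 M reads. All 246 member values were whole reads within a tolerance that grew with the read count. Whole reads were found for 96.9% to 97.9% of all values at a fixed tolerance of 0.05 reads, so the shares are not comparable. The deposited values are CPM, and no count test was run. Amplified reads are not independent molecules.

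log2(CPM + 0.5), which understates fold changes of low genes, was fitted in limma 3.58.1 (R 4.3.3; trend, 2-sided, Benjamini-Hochberg adjustment over all genes, threshold 0.1). Genes needed 1 CPM in as many libraries as the smallest group had. Fasting was tested per nucleus with batch as a term. Nuclei, the average and batches were tested over all 41 libraries with 8 group means, batch and the mouse as a block. Mouse numbers pair nuclei, because 1 mouse gave them. The fits were tested on simulated data, and no value from that test is given here. Members and gene lists were chosen with earlier results of these data known. Named are all members, list genes called with fasting, the 2 largest called differences per list and nucleus at 5 CPM or more, and the 3 genes most like each member. Figures were drawn with matplotlib 3.10.9.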

Additional observations from a re-analysis of the deposited data

Results flagged for a closer look

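In 48 groups of 4 to 6 libraries (6 genes, 4 nuclei, 2 states), the highest or lowest library was compared with the rest of its group by Dixon's gap ratio, and 5 values stood apart, where chance gives about 2.4. That chance count takes the libraries of a group as exchangeable, although Cpe, Pcsk1n, Vgf and Scg2 differed between batches. It also takes CPM values as normally distributed. The ratio was not taken on the log2 scale of the fits, where a high value stands out less, so 5 against 2.4 is not read as an excess. PVN-86, from a fasted mouse of batch 1, was the highest of its group for Vgf at 383 CPM (others 74.1 to 132) and for Scg2 at 3028 CPM (others 1694 to 1975). Vgf stood apart in VMH-85, also fasted and of batch 1, at 59.6 CPM (others 20.1 to 30.8). Cpe was low in VMH-111, the only fed VMH library of batch 1, at 904 CPM (others 1594 to 1677). Nhlh2 was high in VMH-125, a fed mouse of batch 2, at 11.2 CPM (others 0.250 to 2.71). What sets these libraries apart was not tested.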

How the results depend on the processing

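Alternatives were other pseudocounts (0.1 and 2), no filter, a filter at 5 CPM, TMM scaling, no batch term, depth as a covariate, array weights, other treatments of the mouse, and leaving out each library or mouse. Calls at p values near 0.1 and genes of few reads, above all Nhlh2, limit what can be said. With fasting in the ARC, the 1 called member (Vgf) became 0 with a pseudocount of 0.1, without the filter, without the batch term and with depth as a covariate, and 0 to 1 when libraries were left out. In the PVN the count of 1 became 0 without the batch term and 2 with array weights, which added Pcsk1n, and was 0 to 1 when libraries were left out. For the average over nuclei the count of 2 became 0 without the batch term and with 1 mean per mouse, and 1 with depth as a covariate. It was 1 to 3 when mice were left out, where Vgf was always kept (adjusted p of at most 0.0169) and Pcsk1n was lost in 6 of 12 fits. The genes called on average over nuclei numbered 322, but 14 without the batch term, 2 with 1 mean per mouse and 493 with array weights.

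Between nuclei, 6 members in place of 3 differed in the ARC with array weights, and 2 without the batch term, which lost Pcsk1n. In the DMH, 1 in place of 2 did with a pseudocount of 0.1, without the batch term and with the replicate block as fixed mouse terms, and 1 to 2 when mice were left out. Nhlh2 lost its DMH call with that pseudocount and with the fixed block, and also with array weights, where Vgf took its place, and Pcsk1n lost its own without the batch term. Between the ARC and PVN, 4 members became 3 with a pseudocount of 0.1 and with depth as a covariate, which lost Nhlh2, and without the batch term, which lost Pcsk1n. Between the ARC and DMH, 3 members became 4 with TMM scaling, with depth as a covariate and with array weights, which added Scg2, and 2 without the batch term, which lost Cpe. Between the ARC and VMH, 5 became 4 without the batch term, which lost Pcsk1n. Between the DMH and VMH, 6 members in place of 3 passed with array weights, 4 with TMM scaling, which added Pcsk1n, 5 with the replicate block as fixed mouse terms, which added Nhlh2 and Pcsk1n, and 3 to 5 when mice were left out. The fits with no replicate block gave the same counts of members.

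Signs turned only for differences that did not pass the test. On the log2 scale these were Cpe with fasting in the DMH (0.015 without the batch term, 0.16 with depth as a covariate), Pcsk1n in the DMH (0.0453 with array weights), Scg3 in the VMH (-0.03925 with depth as a covariate and -0.0440 with array weights) and Pcsk1n in the VMH against the other nuclei (0.00624 without the batch term). When libraries were left out, fasting differences ranged from -0.0831 to 0.0105 for Cpe in the ARC, from -0.105 to 0.0598 for Pcsk1n in the DMH, from -0.162 to 0.00955 for Cpe and from -0.166 to 0.0287 for Scg3 in the PVN, and from -0.076 to 1.37 for Nhlh2, from -0.0860 to 0.00364 for Scg2 and from -0.0561 to 0.113 for Scg3 in the VMH. When mice were left out, Cpe in the DMH against the others ranged from -0.0492 to 0.0247, and Scg3 in the ARC minus the DMH from -0.00694 to 0.0986. The cause of these changes was not tested.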
